A study of Arabidopsis thaliana with 12 samples.

Results

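The genes described here are 4 class B members of glycoside hydrolase family 9, GH9B8 (AT2G32990), GH9B11 (AT2G44560), GH9B12 (AT2G44570) and GH9B16 (AT4G38990), and the cellulose synthase-like gene CSLA01 (AT4G16590) of the mannan synthase family. They were chosen by name among the genes that the platform annotation pairs with a probe of their own, and they are 5 of 691 such genes on an array of 3439 probes. Each had 1 such probe. Total RNA of wild-type Arabidopsis thaliana of the ecotype Wassilevskija was measured in 2 groups, plants kept for 3 h in MS, a plant culture medium, with 60 mM sucrose and plants treated with water, with 6 arrays per group numbered 1 to 6. The labels give no time for water, no age and no organ, and no group had MS or sucrose alone, so the agents and the treatment time cannot be told apart. In what follows, sucrose as the name of a group stands for MS with sucrose.

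The plant primary wall is a network of cellulose microfibrils, hemicelluloses and pectins. Family 9 enzymes are endo-1,4-beta-glucanases, which cut within chains of beta-1,4-linked glucose. In plants the class A enzymes, among them KORRIGAN, are anchored in a membrane and take part in cellulose synthesis, whereas class B enzymes carry a signal peptide and are secreted, and class C enzymes have an added carbohydrate-binding module. CSLA proteins are Golgi enzymes that build the beta-1,4-linked backbone of mannan and glucomannan, hemicelluloses of the wall and of mucilage. Sugars are both the raw material of these polymers and signals that change plant gene expression.

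After quantile normalization, which gives all arrays the same distribution of values, GH9B8 was higher in sucrose, GH9B12 and CSLA01 were lower, and GH9B11 and GH9B16 did not pass the threshold. GH9B8 rose by 1.15 ± 0.25 on the log2 scale, GH9B12 fell by 1.60 ± 0.20 and CSLA01 fell by 1.53 ± 0.19 (SE, 6 arrays per group, counted as independent). So 3 of the 5 genes passed a limma adjusted p of 0.05, where 41.8% of all 3439 probes did, 20.5% as higher and 21.3% as lower. Without the dimmest 25% of probes, among them those of GH9B8 and CSLA01, 53.2% of the other 2579 passed. The median difference was -0.41 over the 5 genes and 0 over all probes. That 0 is the value of the 340 probes at the floor on all 12 arrays. Those probes count among the 3439 but could not be called. In RNA of mixed cells, fewer cells of a type and less RNA per cell cannot be told apart.

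The scale of the arrays bears on every one of these values. The median intensity of an array was 0.383 ± 0.0787 in sucrose and 0.177 ± 0.00806 in water (mean ± SD over arrays, n = 6 each), and the sucrose arrays 1 and 2 had the highest medians, up to 0.490. The sum over all probes lay between 3325 and 3461 on sucrose arrays and between 3172 and 3296 on water arrays. The highest intensity of any of the 5 genes was 0.660, on a scale that ends at 100. On average, GH9B16 lay above the median of its array in both groups and GH9B12 did so in water. The floor below which values were set equal was 0.0489 after scaling the arrays to a common median. Each gene is therefore given as deposited, relative to the median of its own array, and as its percentile among the probes of its array. The percentile needs no scaling factor but, like the ratio to the median, it is relative to the other probes of the array. It is therefore no independent check of that ratio. The labels do not state whether arrays of 1 group were made from different plants, and the p-values cover the spread from array to array only, which may be technical.

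**Figure D1:**
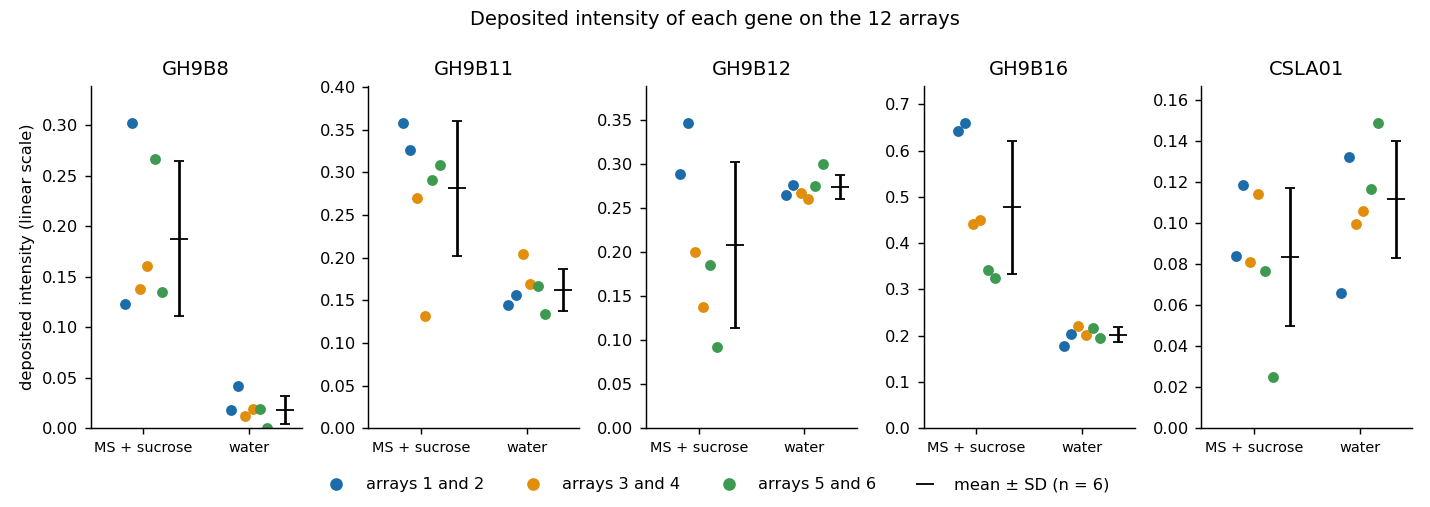
Deposited intensity (linear scale, own axis for each gene) on the 6 arrays of plants in MS with sucrose and the 6 of plants in water. Points are arrays coloured by consecutive number, bars are mean ± SD, and each sucrose array is above each water array for GH9B8 and GH9B16, while the groups overlap for GH9B11, GH9B12 and CSLA01. Of all probes, 37.2% have each sucrose array above each water array on this scale.

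GH9B8 had the higher mean in sucrose by deposited intensity, relative to the array median and by percentile. Its deposited intensity had a lowest value of 0.123, a median of 0.149 and a highest value of 0.302 over the sucrose arrays, against 0, 0.0187 and 0.0423 over the water arrays. The groups did not overlap, as for 37.2% of all probes in this direction. The water array listed at 0 was number 6. Group means were 0.187 ± 0.0767 in sucrose and 0.0185 ± 0.0138 in water (SD, n = 6 each). The water mean was below the floor of 0.0454 on the deposited scale, so no fold is given. Relative to the array median the means were 0.497 ± 0.195 in sucrose and 0.106 ± 0.0803 in water. Again the groups did not overlap, as for 9.04% of all probes in this direction. By percentile, GH9B8 lay between 18.6 and 42.4 on the sucrose arrays and between 6.59 and 19.5 on the water arrays, so that sucrose array 1 fell below water array 2.

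The size of the rise of GH9B8 is not fixed by these data. On 5 of the 6 water arrays it was at the floor, so that the log2 difference of 1.15 (95% interval 0.59 to 1.70, limma adjusted p = 0.0038) is set in part by where the floor stood. With the floor at the 10th percentile of the positive values, in place of the 5th, the difference was 0.48 with adjusted p = 0.055, and with 0.2 added in place of a floor it was 0.45 with adjusted p = 0.0042. As deposited it was 1.95 (adjusted p = 2.4e-05), or 1.27 above the median of all probes. That median was 0.68 on the deposited scale.

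GH9B12 held a nearly constant level over the water arrays and a lower, more variable place on the sucrose arrays. Its percentile ran from 19.4 to 36.7 in sucrose with a median of 31.4, against 63.3 to 66.4 with a median of 65.6 in water. Relative to the array median, GH9B12 averaged 0.526 ± 0.154 in sucrose and 1.55 ± 0.0577 in water (SD, n = 6 each). The groups did not overlap on either measure, as for 22.2% of all probes in this direction relative to the median and 18.7% by percentile. The fitted log2 difference was -1.60 (95% interval -2.04 to -1.16, limma adjusted p = 9.7e-05). With the higher floor it was -1.54 (adjusted p = 2.2e-05), and with 0.2 added in place of a floor -0.82 (adjusted p = 5.8e-06).

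The deposited intensity of GH9B12 overlapped between the groups. It had a lowest value of 0.0924, a median of 0.193 and a highest value of 0.347 in sucrose, against 0.260, 0.271 and 0.299 in water. One sucrose array, number 2, lay above all water arrays, number 1 lay within their range and the other 4 lay below. As deposited the log2 difference was -0.53 with adjusted p = 0.13, so GH9B12 is called lower relative to the other probes of its array and not called on the deposited scale. Less the median of 0.68 over all probes on that scale, the difference was -1.21. Mean intensities were 0.317, 0.169 and 0.139 for the arrays numbered 1 and 2, 3 and 4, and 5 and 6 in sucrose, against 0.271, 0.264 and 0.287 for those in water. Single sucrose arrays did not follow this order throughout, with number 5 at 0.185 and number 4 at 0.138.

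CSLA01, the gene of the mannan synthase family, was likewise lower in sucrose relative to the other probes of its array. Its percentile lay between 13.4 and 21.4 in sucrose, with a median of 17.4, and between 24.0 and 42.8 in water, with a median of 34.7. Relative to the array median it averaged 0.217 ± 0.0856 in sucrose and 0.629 ± 0.150 in water (SD, n = 6 each). The groups did not overlap on that measure, as for 22.2% of all probes in this direction. The fitted log2 difference was -1.53 (95% interval -1.95 to -1.11, limma adjusted p = 1.1e-04), with 2 of the 6 sucrose arrays at the floor, numbers 1 and 6. With the higher floor it was -0.89 (adjusted p = 6.7e-04), and with 0.2 added in place of a floor -0.56 (adjusted p = 3.4e-04). The size of the fall of CSLA01 thus depends on how low values are treated.

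On the deposited scale the groups of CSLA01 overlapped over most of their range. The lowest, median and highest intensities were 0.0251, 0.0826 and 0.119 in sucrose, against 0.0661, 0.111 and 0.149 in water. Only sucrose array 6 lay below all water arrays. The log2 difference as deposited was -0.39 with adjusted p = 0.23. Less the median of 0.68 over all probes on that scale, it was -1.07.

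**Figure D2:**
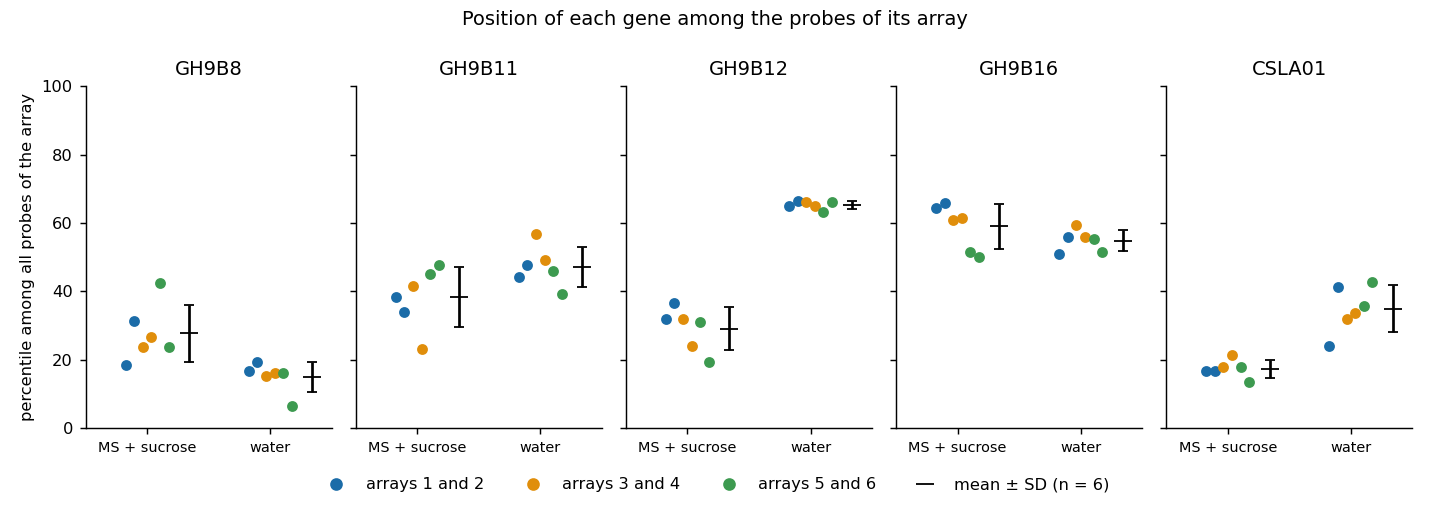
Percentile of each gene among the 3439 probes of its array, for the 6 sucrose and the 6 water arrays (points, coloured by consecutive number, with mean ± SD). GH9B12 lies between 19.4 and 36.7 in sucrose and between 63.3 and 66.4 in water, CSLA01 is also lower in sucrose with no overlap, and the other 3 genes overlap. Of all probes, 18.7% have each sucrose array below each water array by percentile.

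GH9B11 and GH9B16 were called higher on the deposited scale and were not called after quantile normalization. GH9B16 had a lowest intensity of 0.325, a median of 0.446 and a highest intensity of 0.660 in sucrose, against 0.177, 0.203 and 0.221 in water. Every sucrose array exceeded every water array, as for 37.2% of all probes on this scale. The means of 0.477 ± 0.144 in sucrose and 0.202 ± 0.0158 in water (SD, n = 6 each) gave a ratio of 2.36. Relative to the array median, GH9B16 averaged 1.23 ± 0.157 in sucrose and 1.15 ± 0.0965 in water, and the groups overlapped. Its log2 difference was 0.15 after quantile normalization (95% interval -0.09 to 0.40, limma adjusted p = 0.31) and 1.19 as deposited (adjusted p = 1.8e-04). The value as deposited was 0.50 above the median of 0.68 over all probes.

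GH9B11 had a lowest intensity of 0.132, a median of 0.300 and a highest intensity of 0.358 in sucrose, against 0.134, 0.162 and 0.204 in water. Of the 6 sucrose arrays, 5 exceeded the highest water array, and number 4 was below the lowest. Relative to the array median, GH9B11 averaged 0.740 ± 0.201 in sucrose and 0.922 ± 0.158 in water (SD, n = 6 each), with overlap. The direction of its difference turned with the scaling. It was -0.41 after quantile normalization (95% interval -0.87 to 0.05, limma adjusted p = 0.14) and 0.74 as deposited (adjusted p = 0.014). The value as deposited was only 0.05 above the median of 0.68 over all probes on that scale.

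**Figure D3:**
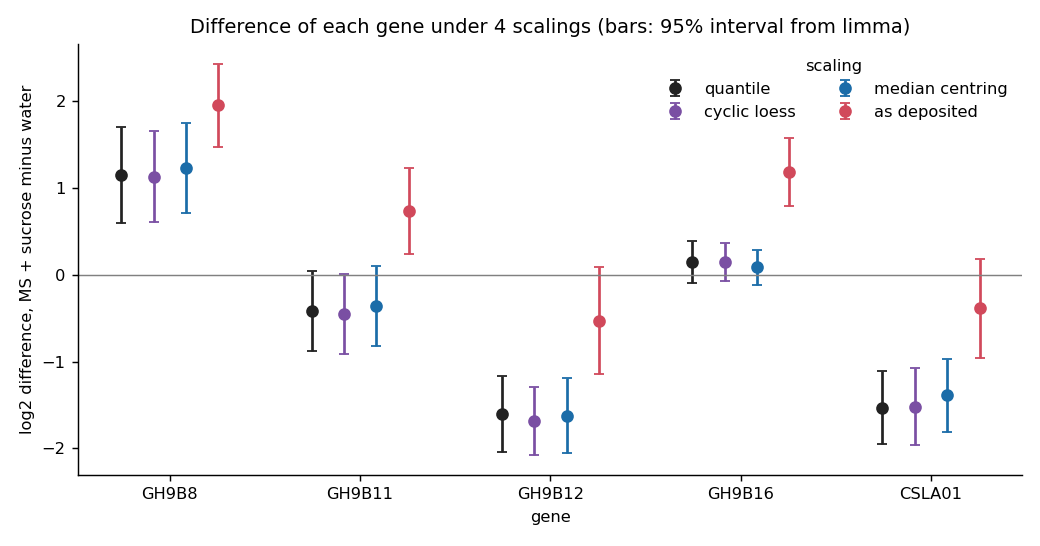
Log2 difference between sucrose and water for each gene under 4 scalings, with 95% intervals from limma. Quantile normalization, cyclic loess and median centring give close values, and the values as deposited lie higher for all 5 genes. The median of all probes as deposited is 0.68.

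Under quantile normalization, cyclic loess (44.7% of all probes called) and median centring (46.4% called), 1 of the 5 genes was called higher, 2 were called lower and 2 were not called. As deposited, 3 were called higher (GH9B8, GH9B11 and GH9B16), none lower and 2 were not called. On that scale 53.7% of all probes were called higher and 6.6% lower, and the median of the 5 genes, 0.74, was close to the median of 0.68 over all probes. GH9B8 was the only one of the 5 called in the same direction under all 4 scalings. Groups that do not overlap were also common over the whole array. On the deposited intensity, 37.2% of all probes had every sucrose array above every water array, as had GH9B8 and GH9B16. Relative to the array median, 9.04% had every sucrose array above, as had GH9B8, and 22.2% had every one below, as had GH9B12 and CSLA01. By percentile, 18.7% had every sucrose array below every water array, as had GH9B12 and CSLA01.

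Ratios between genes on the same array were compared, since a factor common to an array cancels in them, although a shift that depends on level does not. GH9B11 and GH9B12 are next to each other in the reference gene order. The log2 ratio of GH9B11 over GH9B12 had a mean of 0.50 ± 0.67 in sucrose and -0.77 ± 0.26 in water (SD, n = 6 each), a difference of 1.26 ± 0.29 (SE). The sucrose arrays, from -0.09 to 1.74, lay above the water arrays, from -1.16 to -0.39 (two-sided exact permutation p = 0.00216, which is the lowest value possible with 924 splits, and 0.0036 adjusted over the 10 pairs of genes). The neighbouring genes thus differed unequally between the groups, which does not say which of them changed. Taken separately for array numbers 1 and 2, 3 and 4, and 5 and 6, the difference was 0.96, 0.69 and 2.14. The exact test counts the 12 arrays as independent. With each such pair of arrays averaged, 3 against 3, the smallest p that it could give is 0.10, so neither this nor any other ratio could pass. The exact test also leaves out the correlation between sucrose and water arrays of the same number, described with the processing.

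The mannan synthase gene was set against the endoglucanase genes in the same way. The log2 ratio of GH9B12 over CSLA01 averaged 1.11 ± 0.56 in sucrose and 1.34 ± 0.36 in water (SD, n = 6 each), a difference of -0.23 ± 0.27 (SE, exact permutation test, two-sided, p = 0.41, and 0.41 adjusted over the 10 pairs). This does not show that the genes moved alike. The log2 ratio of GH9B16 over CSLA01 averaged 2.38 ± 0.29 in sucrose and 0.90 ± 0.37 in water, a difference of 1.48 ± 0.19 (exact permutation test, two-sided, p = 0.00216, and 0.0036 adjusted). The log2 ratio of GH9B12 over GH9B16 averaged -1.27 ± 0.40 in sucrose and 0.44 ± 0.14 in water, a difference of -1.71 ± 0.17 with the same p-values. Of the 10 pairs of genes, 8 passed after adjustment with all 12 arrays counted as independent, and GH9B11 over GH9B16 (difference -0.45 ± 0.25, exact p = 0.10, and 0.11 adjusted) was the other that did not. The share that would pass among pairs of other probes was not computed, so this count is not read as particular to these genes. In the fit of single probes, 20.5% of all probes were called higher and 21.3% lower. The 10 ratios share genes and are not independent, the floor enters those with GH9B8 or CSLA01, and their level, unlike its difference between groups, cannot be read because the probes differ.

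**Figure D4:**
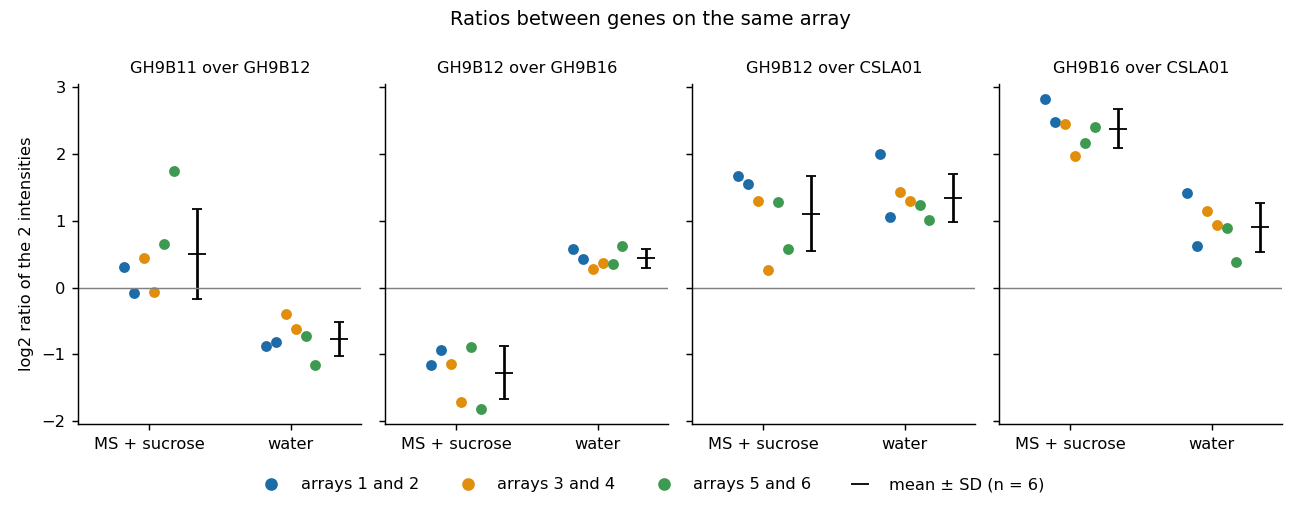
Log2 ratio of a pair of genes on the same array, from floored values scaled to a common median, on 6 sucrose and 6 water arrays (points, coloured by consecutive number, with mean ± SD). The groups are apart for GH9B11 over GH9B12, GH9B12 over GH9B16 and GH9B16 over CSLA01, and overlap for GH9B12 over CSLA01. How often pairs of other probes lie apart was not computed.

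Arrays with consecutive numbers resemble each other within a group, so the differences were also taken for the pairs 1 and 2, 3 and 4, and 5 and 6, with 2 arrays against 2. GH9B8 had log2 differences of 0.70, 1.18 and 1.57 in these number pairs, GH9B12 had -1.26, -1.63 and -1.92, and CSLA01 had -1.54, -1.17 and -1.87. The sign was the same in all 3 number pairs for each of these genes. For GH9B8, however, water arrays 3, 4, 5 and 6 were all at the floor. Its difference within the pairs 3 and 4, and 5 and 6, could therefore not be negative. The share of all probes with the same sign in all 3 number pairs was not computed. With the number pairs averaged, 3 against 3, GH9B8, GH9B12 and CSLA01 passed with limma adjusted p-values of 0.021, 0.010 and 0.0099, while 21.2% of all probes passed. With the number pairs as a random block, at an estimated correlation of 0.46, the SE of these genes rose to 0.38, 0.28 and 0.28. Their limma adjusted p-values were then 0.039, 0.0015 and 0.0019, while 32.5% of all probes passed.

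GH9B11 and GH9B16 had no common sign. GH9B11 had -0.42, -0.97 and 0.16 within the 3 number pairs. GH9B16 had 0.44, 0.13 and -0.10, and its percentile in sucrose averaged 65.1, 61.2 and 50.8 over these pairs, against 53.4, 57.8 and 53.4 in water. Without numbers 1 and 2 in both groups, the difference of GH9B16 was 0.01 and that of GH9B11 -0.41, and GH9B8, GH9B12 and CSLA01 were at 1.41, -1.80 and -1.54, with adjusted p-values of 0.0047, 0.0022 and 0.0020, where 35.3% of all probes were called.

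**Figure D5:**
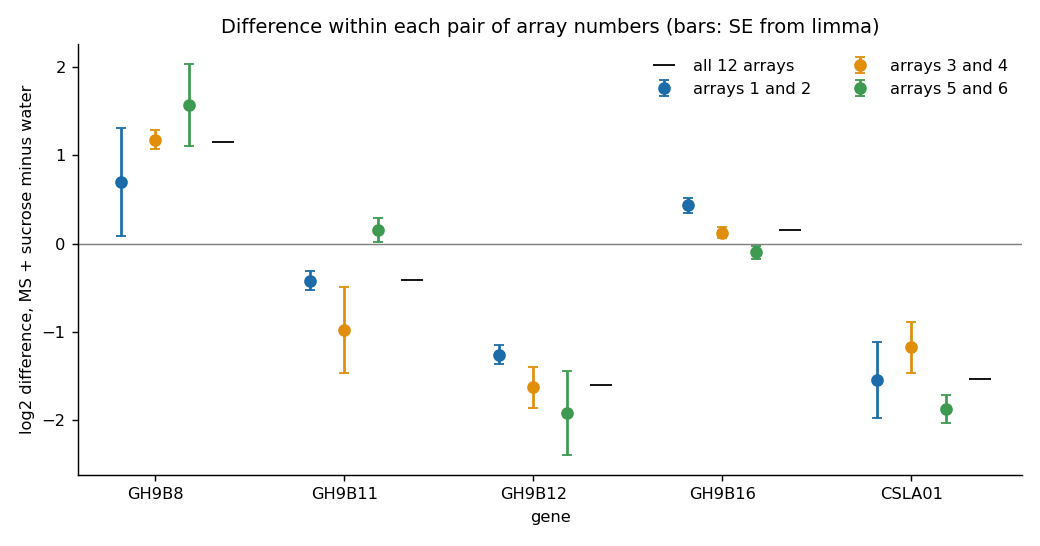
Log2 difference between sucrose and water within each pair of consecutive array numbers (2 arrays against 2, bars are the SE from limma) and over all 12 arrays. GH9B8 is above 0 and GH9B12 and CSLA01 are below 0 in each pair, and GH9B11 and GH9B16 change sign. GH9B8 is at the floor on water arrays 3, 4, 5 and 6, so it could not be below 0 in those pairs.

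The genes with the most similar profile over the 12 arrays were found by the root mean square difference of log2 values, each centred on its own mean. Candidates were genes with a probe of their own that was above the floor on all 12 arrays. GH9B8 and CSLA01 could therefore not be listed as the nearest of another gene. Nearest to GH9B12 were chr31 (AT1G05490), a chromatin remodelling gene, at 0.33, and AT4G24840 at 0.34, where the median over 487 candidate genes was 0.95. Nearest to CSLA01 were AT4G25290 at 0.33 and AT3G59980 at 0.35, against a median of 0.93 over 488 candidates. Nearest to GH9B8 were AT4G31470 at 0.31 and AT5G26850 at 0.36, against a median of 0.80, with GH9B8 above the floor on 7 arrays only. GH9B11 was closest to AT1G70200 (0.18) and AT2G37880 (0.22), with a median of 0.59, and GH9B16 to AT1G17160 (0.12) and AT4G24930 (0.13), with a median of 0.46. The nearest of many candidates lies below their median by construction. These distances describe the profiles and carry no test.

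Few other wall genes could be read. The reference table lists 25 genes of the endoglucanase family and its named relatives, of which these 4 had a probe of their own, and 42 cellulose synthase and cellulose synthase-like genes, of which CSLA01 was the only one. None of 383 genes of hemicellulose and pectin synthesis, wall loosening and degradation, structural wall proteins and nucleotide sugar supply had one, and none of 7 markers of seed, root, flower and green tissue. Probes shared by several genes were not used here. Of these, 7 held a gene of the endoglucanase list and 4 a cellulose synthase or cellulose synthase-like gene. A gene of hemicellulose and pectin synthesis was on 1 and a gene of wall loosening and degradation on 3. None held a gene of the other lists. Genes of all lists may be on probes without an annotation, which were also not used, and the organ makeup of the samples was not tested. Of the shared probes, 2 are paired with several genes that include GH9B11, GH9B12 or GH9B16. Whether a single probe also binds RNA of a close family member was not tested.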

How the data were processed

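The authors deposited 1 intensity per probe and array on a linear scale without negative values. The unit was taken from the values themselves, since the sources used here give neither background correction nor scaling, and 0 is not read as absence. Probes were named from GEO's platform annotation, with 692 of 3439 probes paired with 1 gene, and symbols were updated from a table of assembly TAIR10.1, used for names and neighbours only. Arrays were scaled to a common median, a floor was put at the 5th percentile of the positive scaled values, and the log2 values were quantile normalized. Differences come from lmFit and eBayes of limma 3.58.1 under R 4.3.3, adjusted by Benjamini-Hochberg over all 3439 probes, threshold 0.05. The steps were tested on simulated data. Ratios used exact permutation tests (scipy 1.17.1).

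After subtracting group means, sucrose and water arrays of the same number correlated at 0.43, 0.33, 0.27, 0.25, 0.21 and 0.19, for 1 to 6 in turn, which gave the pairing for an alternative fit with a replicate block. Sucrose and water arrays of different numbers correlated at 0.17 at most. The genes, the gene lists and the pairs of consecutive numbers were chosen with earlier results of these data known. Named genes are the 5 genes, measured members of the wall lists and the 2 nearest profiles of each gene. Alternatives were 3 other scalings, a higher floor, 0.2 added, leaving out the dimmest 25% of probes, the block, array weights, number pairs averaged or alone, and each array left out. A random block for number pairs, leaving out numbers 1 and 2, and the ratios were added after seeing the data. The number of arrays limits the precision.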

Additional observations from a re-analysis of the deposited data

Results flagged for a closer look

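A set of 6 arrays was searched for each gene and group, 10 sets in all, and in 2 of them 1 array stood apart from the others by more than Dixon's 95% critical value, which chance exceeds in about 1 set of 20. For CSLA01, sucrose array 4 was at -3.54 on the normalized log2 scale, and the remaining sucrose arrays were between -4.35 and -4.18, 2 of them at the floor (gap 0.785 of the range). For GH9B8, water array 2 was at -3.84. The remaining 5 water arrays shared the floor value of -4.35, which makes the gap equal to the range (1).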

How the results depend on the processing

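The 5 genes had 128 values under the alternatives. Of these, 116 had the same sign and the same call, 8 were no longer called, 1 was newly called with the same sign and 3 reversed, 1 of them with a call. As deposited, GH9B11 reversed to 0.74 and was called (adjusted p = 0.014), GH9B16 gained the threshold at 1.19, and GH9B12 (-0.53) and CSLA01 (-0.39) lost it. On that scale the median of all probes was 0.68. With the floor at the 10th percentile GH9B8 lost it at 0.48, a setting that makes more low values equal. With only 2 arrays against 2, GH9B8 (0.70) and CSLA01 (-1.54) lost it within numbers 1 and 2, CSLA01 (-1.17) within numbers 3 and 4, and GH9B8 (1.57) and GH9B12 (-1.92) within numbers 5 and 6, where GH9B11 (0.16) and GH9B16 (-0.10) reversed. The cause of these reversals was not tested. The number of called probes was 1436, and 730 with number pairs averaged, 750 within numbers 3 and 4 and 674 within numbers 5 and 6. With any 1 array left out it was 1323 to 1470, GH9B8 was at 0.96 to 1.33, GH9B11 at -0.50 to -0.24, GH9B12 at -1.72 to -1.43, GH9B16 at 0.10 to 0.22 and CSLA01 at -1.66 to -1.45, with no call lost or gained. The replicate block changed no call of the 5 genes. With it 1383 probes were called, and adjusted p was 0.010 for GH9B8, 0.21 for GH9B11, 0.0023 for GH9B12, 0.27 for GH9B16 and 0.0024 for CSLA01 at unchanged differences of 1.15, -0.41, -1.60, 0.15 and -1.53. GH9B8 and CSLA01 were among the dimmest 25% of probes and have no value without them. Closeness to the floor limits both genes.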
